A study of Mus musculus with 6 samples.

Results

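The genes described here are 10 members of the ATF4-CHOP branch of the integrated stress response: the transcription regulators Atf4, Atf5, Ddit3, Cebpb and Nupr1, the effectors Trib3, Chac1 and Sesn2, and the secreted factors Gdf15 and Fgf21. They were chosen by name, each matched 1 locus of its own in the count table, and together they are 10 of 51499 loci. Expression was measured by RNA sequencing of poly-A-selected transcripts in SV40-immortalized mouse embryonic fibroblasts (MEFs) of 2 genotypes, Yme1l fl/fl (called WT) and Yme1l-/-, with 3 independent cultures of each. Yme1l codes for YME1L, a protease that sits in the inner mitochondrial membrane and degrades proteins there. By the study's methods, the cells came from mice with floxed Yme1l, SV40 large T made them immortal, Cre was delivered to remove the gene, and the lines were raised from cell clones of known genotype. Both groups carry SV40 and neither received a further treatment, and since each genotype was expanded from clones, the genotype and the clone cannot be told apart.

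In the integrated stress response, stress-activated kinases phosphorylate the translation initiation factor eIF2alpha, which lowers protein synthesis in general while ATF4, whose transcript carries upstream open reading frames, is translated more. ATF4 is a bZIP transcription factor that turns on genes of amino acid supply together with Ddit3, the gene of CHOP, and dimers of ATF4 with CHOP or C/EBP factors turn on further genes such as Trib3 and Chac1. In cells with stressed mitochondria the same branch is known to raise Fgf21 and Gdf15, which act as hormones on other tissues. Because ATF4 is controlled at translation, a transcript level is not a measure of its protein.

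Dimers of ATF4 and C/EBP factors bind a composite element, and the letters searched for it were TGATGNAAT and the looser TGANGNAAT, on both strands, where every match of the first is also a match of the second. The RefSeq windows of GRCm38.p6, which run from 250 bases before to 50 bases after a gene's start, were found for all 10 genes (12 windows, as Atf5 and Gdf15 have more than 1). TGATGNAAT was present for 2 of the 10 genes, against 1.08% of 27025 genes, and TGANGNAAT for 3 of the 10, against 4.51%. The 3 matches are printed below with their surroundings, 5′ to 3′ on the strand of the gene, with the match in capitals, because they are the letters through which the pathway's own factors are known to act. In Fgf21 and Nupr1 the match reads in reverse orientation, and in Chac1 it lies at the very edge of the window.
Chac1, chr2:119350992-119351011, plus strand: TGACGCAATctgactcgccc
Fgf21, chr7:45615611-45615640, minus strand: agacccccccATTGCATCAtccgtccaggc
Nupr1, chr7:126625562-126625591, minus strand: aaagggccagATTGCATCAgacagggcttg
Counted back from the start, with -1 as the base before it, the first base of the match lies at -250 in Chac1, at -140 in Fgf21 and at -111 in Nupr1. These positions count from RefSeq's start, which for Nupr1 lies inside the longer span that GENCODE gives the gene. The same 9 bases, ATTGCATCA, occur in Fgf21 and in Nupr1. The other 7 genes do not have these exact letters in this window. This says nothing of other forms of the element, which were not searched for in any of the 10 genes, or of sites elsewhere. CCAAT, a shorter and far more frequent motif, was present for 6 of the 10 genes (Atf4, Atf5, Ddit3, Chac1, Sesn2 and Gdf15), against 41.1% of all genes.

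Yme1l1, the gene's symbol in the count table, had 6327, 6292 and 5968 counts in WT cultures 1 to 3 and 1327, 1963 and 2067 counts in the Yme1l-/- cultures. Its log2 fold change of Yme1l-/- over WT was -2.27 ± 0.05 (SE), in the direction the labels give. The libraries held between 33180867 and 49351107 counts, and the 2 deepest were Yme1l-/- cultures 2 and 3. Cultures of 1 genotype varied beyond counting noise (chi-square per degree of freedom of at least 8.64). Of 12 fibroblast markers 9 could be tested, and their summed level lay between 10960 and 11520 CPM in WT and between 6724 and 7207 CPM in Yme1l-/- libraries, led by Col1a1, Col1a2, Fn1 and Vim, with 1 marker higher, 7 lower (among all loci tested, 33.6% were higher and 34.1% lower) and Thy1, Fap and Lum near 0 in both genotypes. Col3a1, the abundant marker with the largest difference, had 86.3, 301.2 and 91.1 CPM in WT cultures 1 to 3, of which culture 2 stood apart, and a mean of 28.7 CPM in Yme1l-/-. Dcn had its highest value in the same WT culture, with 52, 257 and 51 counts. The summed level of 7 epithelial markers lay between 110.9 and 127.6 CPM in WT and between 2.69 and 3.32 CPM in Yme1l-/- libraries, nearly all of it Krt19. That of 8 immune markers was 1.92 to 2.08 against 4.36 to 4.93 CPM, with Adgre1 and Cd3e at 0 in every library, and that of 7 endothelial markers was 0.949 to 1.56 against 1.94 to 2.17 CPM, with Tie1 and Emcn at 0. These differences move with genotype, and their part in the results that follow was not tested. In bulk RNA, fewer cells of a kind and less RNA per cell cannot be told apart.

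Transcripts of most of the 10 genes were higher in Yme1l-/- MEFs. Of the 10 genes, 8 rose, none fell, and Cebpb and Gdf15 did not pass the test. The 8 were, from the largest log2 fold change down, Trib3, Ddit3, Fgf21, Chac1, Atf5, Sesn2, Atf4 and Nupr1. A gene counted as changed when its adjusted p from edgeR's quasi-likelihood test, over all 13867 loci tested, was under 0.05. That threshold was passed upward by 33.6% of all loci tested and downward by 34.1%, so the genotypes differed at a large share of loci. All 10 log2 fold changes were above 0, with a median of 1.08, and the median of all loci was close to 0 (-0.004). No member was lower at an unadjusted p under 0.05 by edgeR or by DESeq2. DESeq2 called 9 members higher, in a fit that called 9106 loci in either direction. In 9 of the 10 genes every Yme1l-/- library lay above every WT library, which was the case for 35.9% of all loci tested. Fgf21 is in each of these counts and in the later counts of 8 genes called higher. It passed the filter on low counts only through its Yme1l-/- libraries, so it adds no support to them. Levels are given as CPM (counts scaled by edgeR to the library size of the tested loci after TMM scaling), and errors of log2 fold changes are SE.

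**Figure D1:**
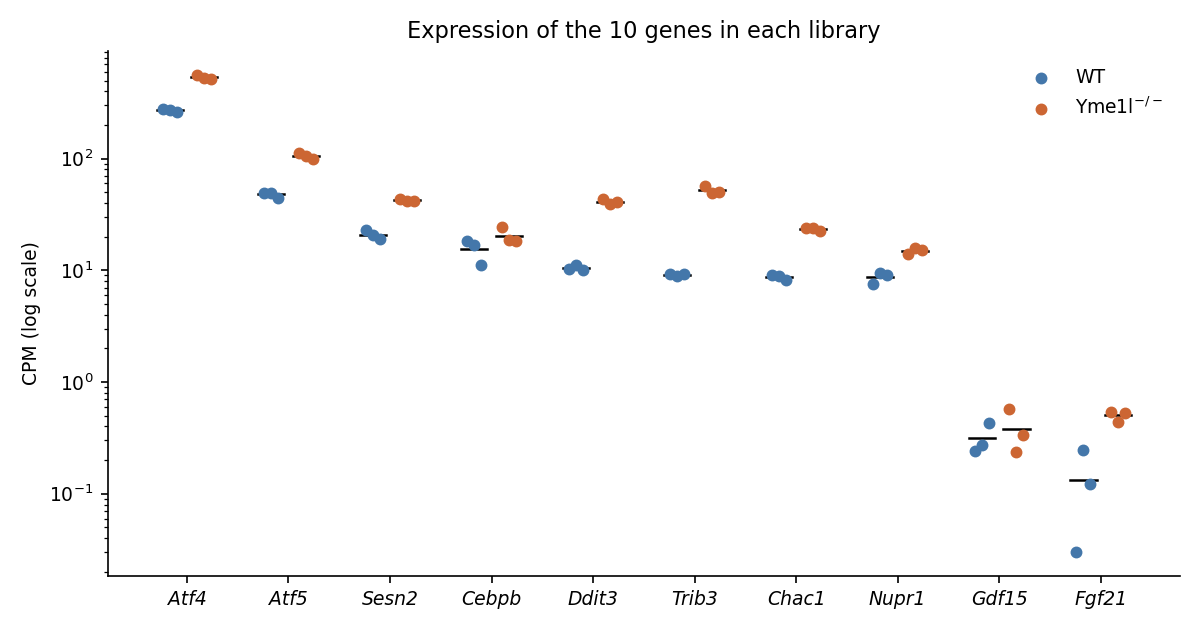
Level of each of the 10 genes in each library, in CPM on a log axis, with WT in blue, Yme1l-/- in orange and a bar at the mean of 3 cultures. The 2 genotypes overlap only for Gdf15, and Gdf15 and Fgf21 lie far below the other 8.

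Atf4, the transcription factor at the head of the branch, had the highest level of the 10 genes, with 275.4, 272.2 and 262.1 CPM in the WT libraries and 565.3, 532.5 and 512.4 CPM in the Yme1l-/- libraries. The groups were far apart relative to their spread. The log2 fold change was 0.99 ± 0.05 (edgeR adjusted p = 1.5e-08), from 269.9 ± 6.93 to 536.7 ± 26.7 CPM (SD, n = 3). Atf4 lies on chr15:80255184-80257541 (mm10, plus strand), on a chromosome whose loci were shifted as a whole, as described further on.

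Atf5, a bZIP factor related to ATF4 and known for its part in the mitochondrial stress response, had 48.9, 49.6 and 44.8 CPM in WT and 111.5, 104.8 and 99.8 CPM in Yme1l-/- libraries. Every Yme1l-/- value was more than 2 times the highest WT value. It rose by 1.14 ± 0.06 on the log2 scale (edgeR adjusted p = 1.9e-08). Its gene (chr7:44812256-44816658, minus strand) shares 571 bases with Nup62 and 272 bases with Il4i1, both on the opposite strand. Those 2 genes were merged into 1 locus, which had a log2 fold change of -0.02 ± 0.04 and was not called.

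Ddit3, which codes for CHOP, a C/EBP-like factor that pairs with ATF4, had 10.4, 11.3 and 10.01 CPM in WT and 43.4, 39.5 and 40.8 CPM in Yme1l-/- libraries. The lowest Yme1l-/- library was well above the highest WT library. Ddit3 rose by 1.97 ± 0.07 on the log2 scale (edgeR adjusted p = 8.6e-10), a 3.91-fold difference. Ddit3 (chr10:127290774-127296288, plus strand) shares 68 bases at its end with Mars, the methionyl-tRNA synthetase gene, and 15 bases at its other end with Gm4189, both on the opposite strand. Mars itself rose from 180.6 to 345.7 CPM (log2 fold change 0.94 ± 0.04). Whether strand was used in counting is not given in the sources used here, so fragments in such overlaps cannot be assigned.

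Nupr1, a small chromatin-associated stress protein, had 7.61, 9.38 and 9.16 CPM in WT and 13.9, 15.8 and 15.3 CPM in Yme1l-/- libraries. The groups did not overlap, although the difference was the smallest of the 8 that passed. On the log2 scale Nupr1 rose by 0.79 ± 0.10 (edgeR adjusted p = 2.7e-05). The gene lies on chr7:126623249-126630861, minus strand (GENCODE).

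Cebpb codes for C/EBPbeta, a bZIP partner of ATF4 that also acts in inflammation and adipocyte development. It had 18.1, 16.9 and 11.1 CPM in WT and 24.3, 18.7 and 18.4 CPM in Yme1l-/- libraries. All Yme1l-/- values were above all WT values, but Yme1l-/- cultures 2 and 3 were close to WT culture 1. The log2 fold change of 0.41 ± 0.20 did not pass the test (edgeR adjusted p = 0.113), whereas DESeq2 called it (log2 fold change 0.41, adjusted p = 0.0140). The WT spread came mostly from culture 3, and the coefficient of variation was 24.3% in WT against 2.57% for Atf4. The first 908 bases of Cebpb (chr2:167688915-167690418, plus strand) overlap Tmem189 on the opposite strand, whose merged locus fell by 0.33 on the log2 scale.

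Among the effectors, Trib3 had the largest change of the 10 genes in the fit on all libraries. Without WT culture 2 its log2 fold change was 2.49, below that of Fgf21 (2.67). Trib3 codes for a pseudokinase that is induced by ATF4 and CHOP and in turn restrains both of them and the kinase AKT. Its level was 9.27, 8.95 and 9.22 CPM in WT and 56.6, 49.6 and 50.2 CPM in Yme1l-/- libraries. The WT libraries were nearly equal and the Yme1l-/- libraries were all more than 5 times higher. Trib3 rose by 2.51 ± 0.07 on the log2 scale (edgeR adjusted p = 1.5e-10), a 5.69-fold difference, and 2.62% of all loci tested had a larger one. Trib3 lies on chr2:152337422-152344032, minus strand.

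Chac1, an enzyme that breaks down glutathione, had 9.12, 8.89 and 8.18 CPM in WT and 23.9, 23.8 and 22.7 CPM in Yme1l-/- libraries. The spread within either genotype was small beside the gap between them. Chac1 rose by 1.43 ± 0.07 on the log2 scale (edgeR adjusted p = 1.7e-08). Chac1 lies on chr2:119351229-119354381, plus strand.

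Sesn2 codes for Sestrin 2, a leucine sensor that holds back the growth kinase complex mTORC1. It had 22.8, 20.7 and 19.0 CPM in WT and 43.9, 41.6 and 41.4 CPM in Yme1l-/- libraries. The Yme1l-/- libraries agreed more closely with each other than the WT libraries did, with a coefficient of variation of 3.30% against 9.10%. This was a log2 fold change of 1.02 ± 0.07 (edgeR adjusted p = 1.9e-07). The gene (chr4:132492032-132510501, minus strand) holds the annotated transcript Gm12981 on the same strand over 6089 bases.

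The secreted factors were barely expressed in either genotype. Fgf21 (chr7:45613886-45615490, minus strand), a hormone of fasting and mitochondrial stress, had 1, 8 and 4 counts in the WT libraries and 19, 22 and 27 counts in the Yme1l-/- libraries. The groups did not overlap, but the locus passed the filter on low counts only through its Yme1l-/- libraries and so had to differ if it was tested at all. On the CPM scale its mean was 0.132 ± 0.107 in WT and 0.503 ± 0.058 in Yme1l-/- (SD, n = 3). The log2 fold change was 1.90 ± 0.48 (edgeR adjusted p = 0.0046), with the largest error of the 10 genes. It was 1.43 without WT culture 1 and 2.67 without WT culture 2. Of the other 9 genes, 7 rose and 8 had every Yme1l-/- library above every WT library, against 33.6% and 35.9% of all loci tested.

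Gdf15 (chr8:70629393-70632456, minus strand), a TGF-beta family member that acts on appetite through the brainstem, had 8, 9 and 14 counts in WT and 20, 12 and 17 counts in Yme1l-/- libraries. WT culture 3 was above Yme1l-/- culture 2, so the groups overlapped. The log2 fold change of 0.22 ± 0.42 did not pass the test (edgeR adjusted p = 0.667), and it was -0.14 without Yme1l-/- culture 1.

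Levels of different genes can be compared only per length, so CPM was divided by the transcript length that the authors' FPKM values (a depth-scaled level per kilobase) imply. On that per-kilobase scale the order in WT was Atf4 (169.5), Atf5 (28.3), Ddit3 (15.4), Nupr1 (13.3), Cebpb (11.3), Sesn2 (6.11), Chac1 (5.81), Trib3 (4.84), Gdf15 (0.255) and Fgf21 (0.169). The neighbours in this order whose libraries overlapped were Nupr1 and Cebpb, Sesn2 and Chac1, and Gdf15 and Fgf21. In Yme1l-/- the order was Atf4 (337.1), Atf5 (62.5), Ddit3 (60.3), Trib3 (27.6), Nupr1 (22.9), Chac1 (15.6), Cebpb (15.01), Sesn2 (12.4), Fgf21 (0.641) and Gdf15 (0.309), where Atf5 overlapped Ddit3 and Chac1 overlapped Cebpb. Atf4 stayed at the head in both genotypes, Trib3 moved from the eighth place to the fourth, and Ddit3 reached the level of Atf5.

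A ratio to Atf4 within each library does not depend on how libraries are scaled. Per 1000 Atf4 fragments, without correction for length, Trib3 had 33.7, 32.9 and 35.2 fragments in WT and 100, 93.2 and 97.9 in Yme1l-/- libraries, a 2.86-fold difference of the means. Ddit3 had a mean of 39.1 in WT and 76.9 in Yme1l-/-, which is 1.97-fold. The ratio of Chac1 was 1.35-fold and that of Atf5 1.11-fold higher in Yme1l-/-, and for these 4 genes the highest WT library lay below the lowest Yme1l-/- library. Sesn2 kept nearly the same ratio, with means of 77.2 and 78.8 fragments, and its libraries overlapped. The ratios of Nupr1, Cebpb, Gdf15 and Fgf21 overlapped between genotypes as well, with means of 32.3 and 28.1 for Nupr1 and of 56.8 and 38.0 for Cebpb. Trib3, Ddit3, Chac1 and Atf5 thus differed between genotypes by more than Atf4 did, and no test was run on these ratios. Ratios of other loci to Atf4 were not computed, so this count has no share of all loci beside it. The ratios carry the shift of the chromosome of Atf4, described next. With chromosome medians removed the log2 fold change was 0.40 for Atf4, 1.12 for Sesn2 and 0.80 for Nupr1. Both were then above Atf4, and Sesn2 had been slightly above it before (1.02 against 0.99). Cebpb (0.43 ± 0.20) and Gdf15 (0.53 ± 0.42) did not pass the test, and lay above Atf4 by less than their errors.

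Within the Yme1l-/- genotype, culture 1 had the highest CPM for 9 of the 10 genes, the exception being Nupr1, for which it had the lowest. Culture 1 was also the shallowest of its genotype, with 34624075 counts. In WT, culture 3 had the lowest value for 6 of the 10 genes. Without Yme1l-/- culture 1, and with all libraries thinned to the smallest total, 8 of the 10 genes were again called higher, under fits that called 9406 and 9324 loci in either direction, where the fit on all libraries called 9387.

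Each gene was set against its chromosome, since loci moved by chromosome in this comparison. The median log2 fold change of a chromosome ranged from -0.44 for chromosome 12 to 0.59 for chromosome 15, the chromosome of Atf4. On chromosome 15 the log2 fold change of Atf4 was exceeded by 133 of 545 loci, which is 24.4%. For the other called genes that share was between 2.58% (Trib3, among 1084 loci of chromosome 2) and 11.8% (Nupr1, among 1026 loci of chromosome 7). The median of chromosome 10, which holds Ddit3, was 0.30, that of chromosome 4, which holds Sesn2, was -0.10, and those of chromosomes 2 and 7 were close to 0 (-0.02 and -0.01).

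**Figure D2:**
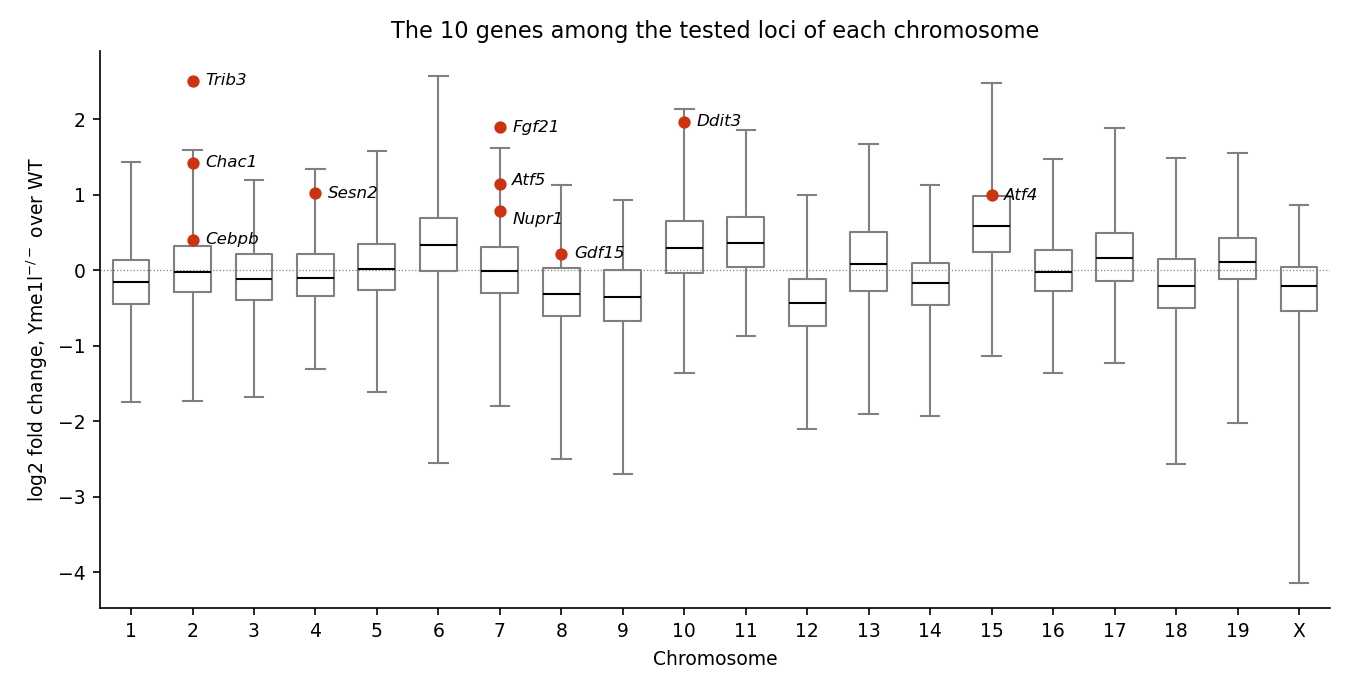
Log2 fold changes of the 10 genes (red points) over the tested loci of each chromosome, where boxes span the quartiles, the line is the median and whiskers reach the 5th and the 95th percentile. Atf4 lies near the upper edge of the box of chromosome 15, and Trib3 lies above the upper whisker of chromosome 2.

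With the chromosome median removed from each locus, the same test called 8 of the 10 genes higher and none lower, and their median log2 fold change was 1.13. Over all loci tested, this test called 31.1% higher and 31.7% lower. Atf4 was the gene that moved most, from 0.99 to 0.40 ± 0.05 (edgeR adjusted p = 2.9e-05), which is a 1.32-fold difference where it had been 1.99-fold. Ddit3 went from 1.97 to 1.67 ± 0.07. Sesn2 went the other way, from 1.02 to 1.12 ± 0.07, and Trib3, Chac1, Atf5, Nupr1 and Fgf21 moved by about 0.02 or less. Gdf15, on chromosome 8 with a median of -0.32, went from 0.22 to 0.53 ± 0.42 and still did not pass (edgeR adjusted p = 0.294). Cebpb did not pass either (log2 fold change 0.43, edgeR adjusted p = 0.105).

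**Figure D3:**
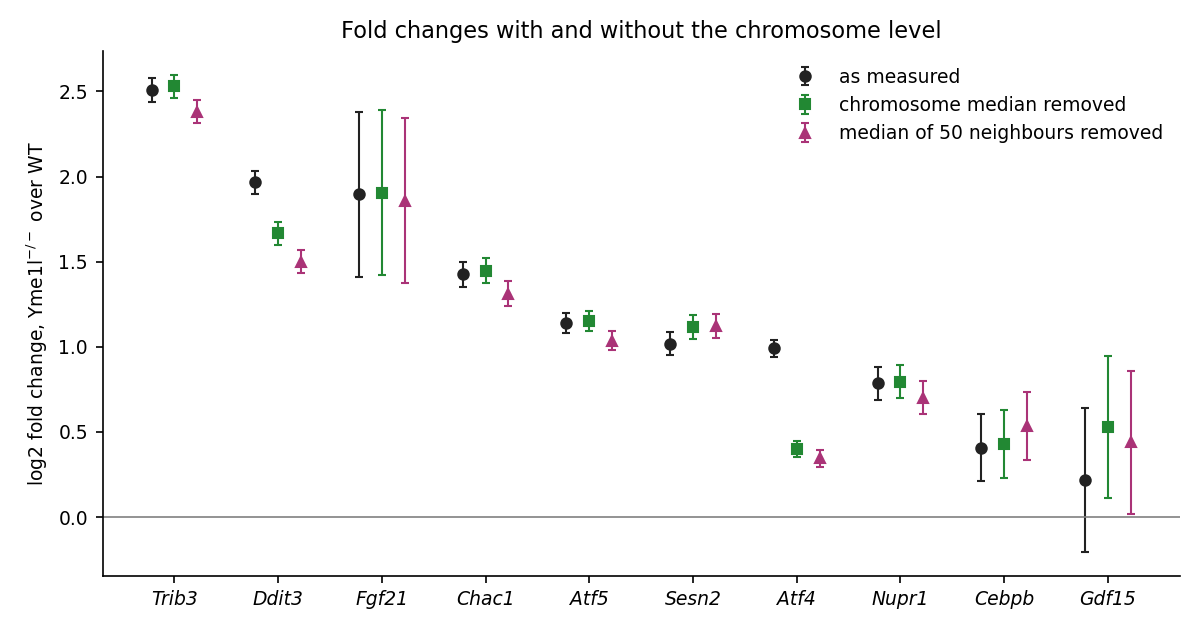
Log2 fold change of Yme1l-/- over WT with SE for each of the 10 genes, as measured (black circles), with the chromosome median removed (green squares) and with the median of the 50 nearest loci removed (purple triangles). The 3 values of Trib3 lie between 2.38 and 2.53, while Atf4 falls from 0.99 to 0.40 and 0.35.

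The nearest loci gave a finer background. They were the 50 tested loci flanking a gene in order of start position, equally on both sides for each of the 10 genes. Of the 50 tested loci flanking Atf4, which span 2.69 Mb, 48 had a log2 fold change above 0, 43 were called higher and 14 exceeded Atf4, with a median of 0.65. Around Ddit3, 36 of the 50 nearest loci were called higher and 3 exceeded it, with a median of 0.47. Trib3 was exceeded by 1 of its 50 neighbours, Chac1 and Sesn2 by 3 each, Fgf21 by 4, Nupr1 by 7 and Atf5 by 10. With the median of the 50 nearest loci removed, 30.3% of all loci tested were called higher, and so were the same 8 genes. Atf4 was then 0.35 ± 0.05 (edgeR adjusted p = 8.9e-05), Ddit3 1.501 ± 0.07 and Trib3 2.38 ± 0.07. The copy number of these regions in the clones was not measured here.

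**Figure D4:**
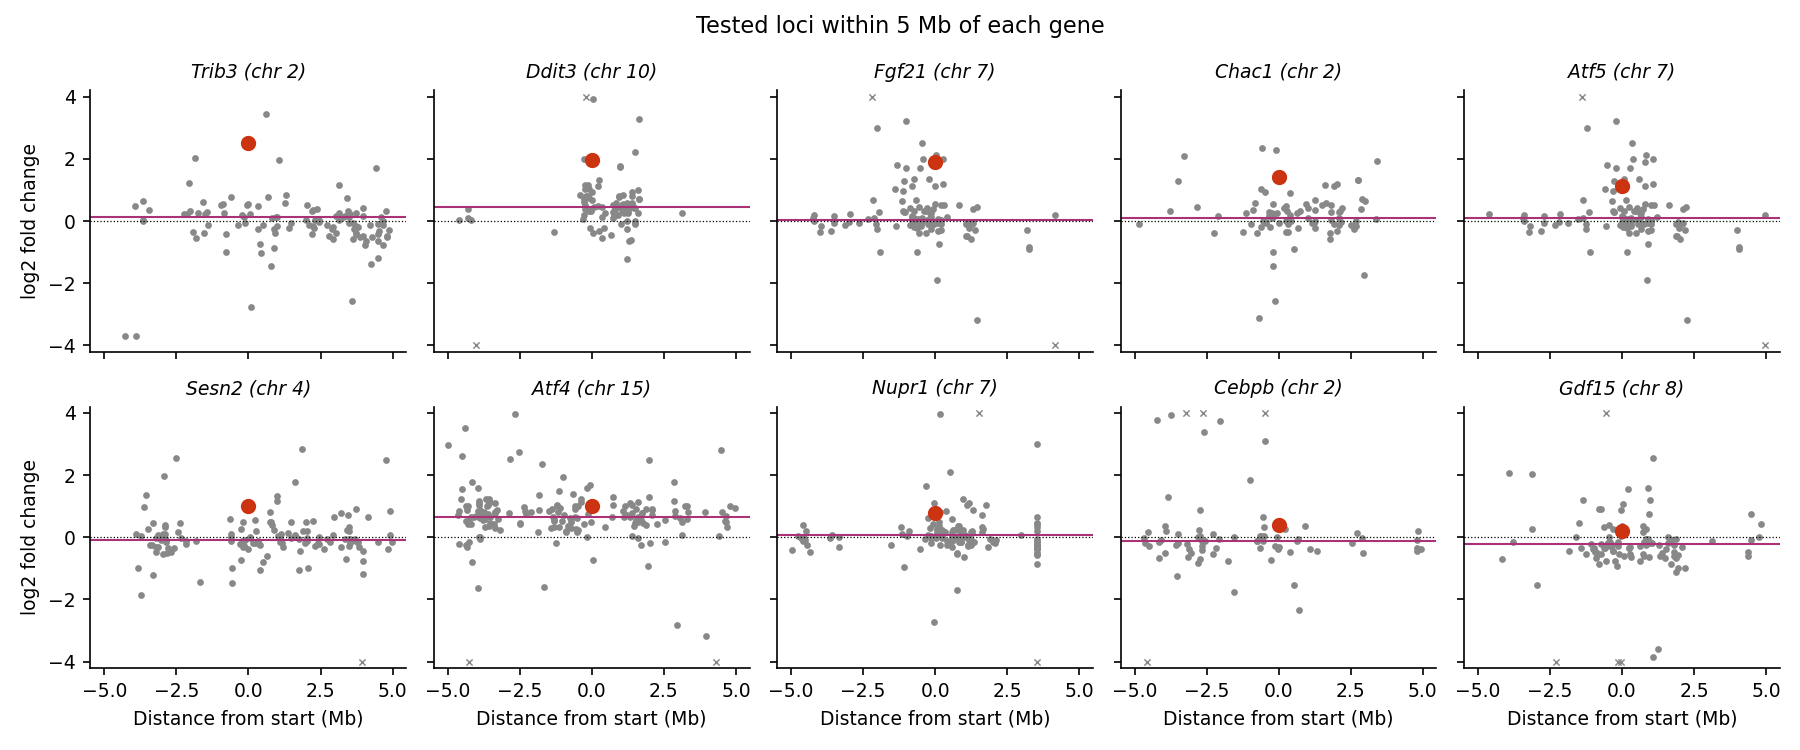
Log2 fold changes of tested loci (grey points) by distance in Mb from the start of each of the 10 genes (red points), with the median of the 50 nearest loci as a purple line and crosses at the edge for loci beyond 4 in size. Most points around Atf4 lie above 0, and those around Trib3 and Sesn2 scatter about 0.

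The relatives of these genes moved in both directions. Of 20 family members (other ATF and C/EBP factors, Tribbles proteins, sestrins, Chac2 and Nupr1l), 17 could be tested, and 8 rose, 4 fell and 5 did not pass, with a median log2 fold change of 0.12, where 33.6% of all loci tested rose and 34.1% fell. Cebpd, a further C/EBP factor, rose from 6.11 to 15.5 CPM (log2 fold change 1.34 ± 0.15). Jdp2, a bZIP repressor of the AP-1 family, rose by 0.61 ± 0.06 and Sesn1, a sestrin known as a p53 target, by 0.57 ± 0.06. Atf3, a stress-induced factor downstream of ATF4, rose from 10.9 to 14.9 CPM (0.45 ± 0.10), and is named here after its value was seen.

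Trib2, a Tribbles pseudokinase like Trib3, went in the opposite direction. It had 511, 723 and 629 counts in the WT libraries and 1, 2 and 1 counts in the Yme1l-/- libraries, and was at least 221-fold lower, taking 3 counts in a library as the floor. Trib1, the remaining Tribbles gene, fell from 46.7 to 26.9 CPM (log2 fold change -0.80 ± 0.07). The 3 Tribbles genes thus had Trib3 higher and Trib1 and Trib2 lower in every Yme1l-/- library. Atf2 fell from 76.9 to 55.4 CPM. With chromosome medians removed, 8 family members were higher and 7 lower, against 31.1% and 31.7% of all loci, and these were not the same genes. Atf1, which lies on the same chromosome as Atf4, went from 0.46 to -0.14, and the merged locus of Atf7 on that chromosome from 0.27 to -0.32, both called higher before and lower after. Atf6b was newly called lower (-0.12 to -0.29), and Batf3 (0.24 to 0.39) and Sesn3 (0.05 to 0.41) were newly called higher.

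Known targets of ATF4 other than the 10 genes were mostly higher. Of 30 symbols written down, 29 were found as loci and tested, and 23 rose, 2 fell and 4 did not pass, with a median log2 fold change of 0.50, where 33.6% of all loci tested rose and 34.1% fell. Vldlr, a lipoprotein receptor, rose from 16.0 to 51.7 CPM (log2 fold change 1.69 ± 0.07), Cth, which makes cysteine from cystathionine, rose from 8.57 to 26.9 CPM (1.65 ± 0.08), and Asns, asparagine synthetase, rose from 92.8 to 243.8 CPM (1.39 ± 0.05). Each of these log2 fold changes was below that of Trib3 and above that of Atf4. Cbs, the enzyme that makes cystathionine, fell from 1.301 to 0.687 CPM, and Wars, the cytosolic tryptophanyl-tRNA synthetase, fell from 105.9 to 96.7 CPM (-0.13 ± 0.05). The count of 2 lower targets was 1 without WT culture 1, without WT culture 2 or without Yme1l-/- culture 3. Slc7a11, the cystine transporter subunit, had a log2 fold change of 0.13 and did not pass. With chromosome medians removed, 23 were higher and 3 lower, against 31.1% and 31.7% of all loci, with a median of 0.54. Under that setting Wars was higher (0.31), while Slc38a2, on the chromosome of Atf4, went from 0.35 to -0.24 and Ddit4 from 0.13 to -0.17.

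Of 10 genes known to be bound or raised by CHOP, 3 rose, 5 fell (Wars, listed above, among them) and 2 did not pass, with a median log2 fold change of -0.09. Their share called higher was near the 33.6% of all loci tested, and 34.1% of all loci fell. Ppp1r15a (GADD34), the subunit that directs a phosphatase to eIF2alpha, rose from 52.5 to 63.0 CPM (0.26 ± 0.05), and Edem1 and Bak1 rose by 0.18 and 0.12. Pmaip1 (Noxa), a BH3-only cell death gene that is also a p53 target, fell from 20.2 to 4.71 CPM (-2.10 ± 0.12). Bbc3 (Puma), of the same kind, fell from 6.89 to 4.61 CPM, and Dnajc3, a chaperone of the endoplasmic reticulum, from 123.7 to 96.4 CPM. Ero1l, an oxidase of the same compartment, fell by 0.17. With chromosome medians removed, 3 were higher and 4 lower, against 31.1% and 31.7% of all loci, and only Ppp1r15a was called higher in both fits. Edem1 was then called lower (-0.16), Bak1 (-0.04) and Ero1l (-0.003) were not called, and Tnfrsf10b (0.17) and Wars (0.31) were called higher.

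The machinery upstream of ATF4 was tested for 12 genes, of which 3 rose, 3 fell and 6 did not pass, with a median of -0.04, shares no higher than those of all loci tested (33.6% and 34.1%). Among the 4 eIF2alpha kinases, Eif2ak2 (PKR), which senses double-stranded RNA and is induced by interferon, rose from 54.9 to 124.1 CPM (log2 fold change 1.18 ± 0.09). The other kinases did not pass, with log2 fold changes of 0.00 for Eif2ak1 (HRI), 0.02 for Eif2ak3 (PERK) and -0.08 for Eif2ak4 (GCN2). With the chromosome median removed, Eif2ak3 was lower (-0.32). Eif2s1, which codes for eIF2alpha itself, fell by 0.46 on the log2 scale, and the value was -0.02 with the median of chromosome 12 removed. Of the mitochondrial relay that passes stress to HRI, the protease gene Oma1 had -0.08 and did not pass, and Dele1 (0610009O20Rik in the table) fell by 0.12, a call that was lost with the chromosome median removed, where the value was 0.09. Ppp1r15b, the constitutive counterpart of Ppp1r15a, fell by 0.31, and was -0.15 and still called with the chromosome median removed. Btrc, a ubiquitin ligase subunit that marks ATF4 for degradation, rose by 0.68 ± 0.09. Fbxw11, its paralog, had 0.09 and did not pass, and was called lower (-0.26) with the chromosome median removed.

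Receptors of the secreted factors were in part not detected. Gfral, the receptor of GDF15, had 0 counts in every library, which allows up to 3 counts in each, and Klb, the co-receptor that FGF21 needs, had 3 counts or fewer in every library, as did Fgfr4. Ret, the signalling partner of GFRAL, fell from 3.65 to 0.423 CPM (log2 fold change -3.15 ± 0.26). Among the FGF receptors, Fgfr1 fell from 170.7 to 80.3 CPM (-1.09 ± 0.05) and the merged locus of Ctbp2 and Fgfr2 fell by 0.53 on the log2 scale, while Fgfr3 rose from 3.53 to 17.1 CPM (2.28 ± 0.09). Of the 4 that could be tested, 1 rose and 3 fell, and among all loci tested 33.6% rose and 34.1% fell.

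**Figure D5:**
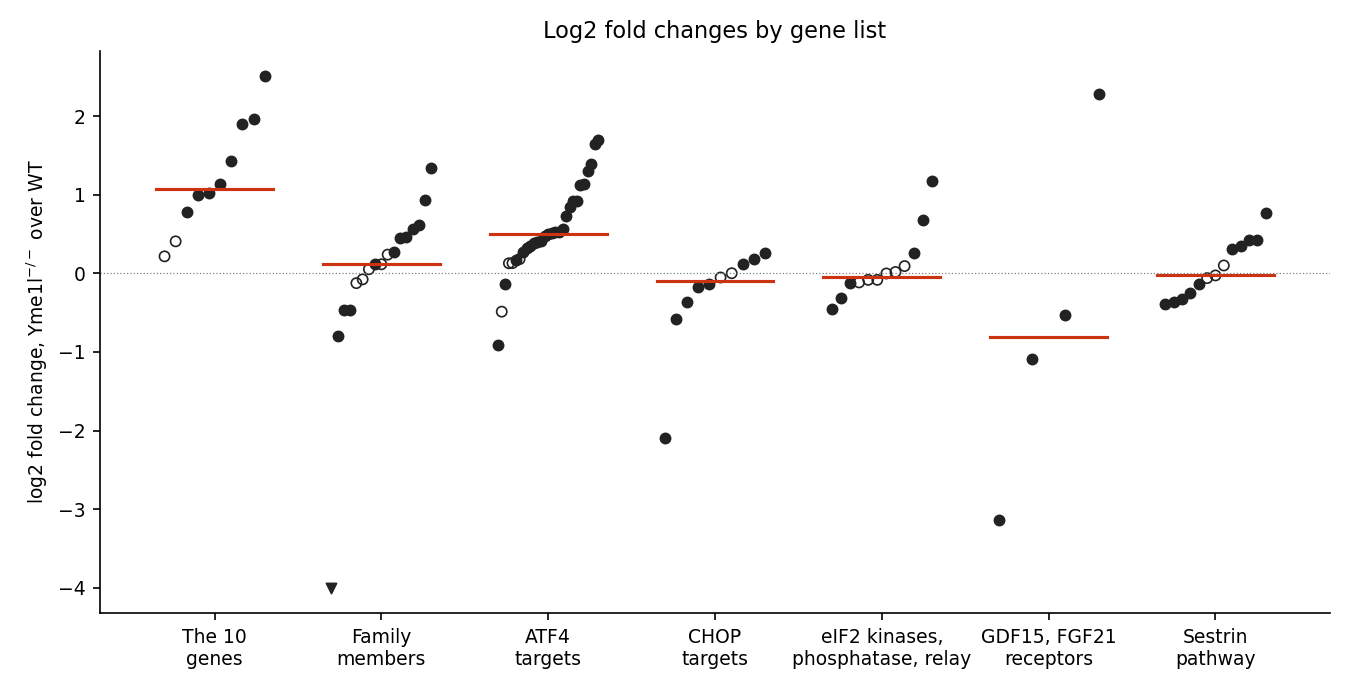
Log2 fold change of Yme1l-/- over WT for each tested locus of the 10 genes and of 6 further lists, filled where the edgeR test passed and open where it did not, with a red line at the median of the list. The medians are 1.08 for the 10 genes and 0.50 for ATF4 targets, and the triangle at the bottom is Trib2, which lies beyond the axis.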

How the data were processed

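RNA of 3 WT and 3 Yme1l-/- MEF cultures was sequenced by the authors from stranded poly-A libraries. Per the submitters' processing notes and the methods, reads were mapped to mm10 (GRCm38) with HISAT2 2.0.4, assembled with StringTie 1.3.3 on Ensembl annotation and compared with Cuffdiff 2.2.1. The counting tool and its use of strand are not given in the sources used here. The table deposited by the authors holds raw counts for 51499 loci, without normalization, of which 635 join several symbols. The authors' second table gives 1 combined FPKM value per genotype, used only for lengths and level order. Its fold changes and p-values were not used. WT columns are headed WT2, which is not explained.

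Counts were tested in R 4.3.3 with edgeR 4.0.16 (filterByExpr with minimum count 10, TMM, glmQLFit robust, glmQLFTest, two-sided, Benjamini-Hochberg over 13867 loci, threshold 0.05) and no covariates. Chromosome medians, or medians of the 50 nearest loci, were removed as offsets of the Yme1l-/- libraries. The test was tried on simulated data. DESeq2 1.42.0, other scalings and filters, a replicate block, thinning and leaving out each culture were alternatives. Floors cover counting error only. The SE of a log2 fold change is its size divided by the square root of edgeR's F statistic. SE and p-values set the genotype difference against the spread between cultures of a genotype. Coordinates come from GENCODE and the deposited table, promoter windows from RefSeq. The members and gene lists were chosen with earlier results of these data known. Besides the 10 members and Yme1l1, each list contributed the 3 highest and 3 lowest called loci with at least 10 CPM in the higher genotype, short lists in full, and others named are examples chosen after their values were seen. Some loci that were selected for the likeness of their profile are not reported here.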

Additional observations from a re-analysis of the deposited data

How the results depend on the processing

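Across 256 values recomputed under alternatives, 249 held (fold changes kept their direction and side of the threshold, and counts stayed within 1.5 times), no fold change lost a call, 2 gained one, 4 counts moved by over 1.5 times and 1 direction reversed. The count of ATF4 targets called lower was 1 with upper-quartile scaling and ranged from 1 to 2 when single cultures were left out (1 without WT culture 1, WT culture 2 or Yme1l-/- culture 3), where it had been 2, and it was 3 with the replicate block and with no filter beyond a total of 1 count. The log2 fold change of Gdf15 was -0.136 without Yme1l-/- culture 1, within a range of -0.136 to 0.499 over left-out cultures, and the cause was not tested. With the replicate block, Cebpb was called (log2 fold change 0.427, edgeR adjusted p = 0.0035), as it was by DESeq2 (0.406). The block called 9 of the 10 genes and 9794 loci where the fit without it called 8 and 9387. The deviations of same-numbered cultures had correlations of 0.158, -0.105 and 0.049 between genotypes. Whether cultures with the same number were handled together is not stated, and these correlations over all loci tested cannot decide it. Requiring 10 counts in every library removed Gdf15 and Fgf21, which have no value there, and left 7 genes called higher. That fit called 8513 loci in either direction. Over all alternatives that gave a value, the log2 fold change ranged from 2.38 to 2.57 for Trib3, from 1.501 to 2.02 for Ddit3, from 1.43 to 2.67 for Fgf21 and from 0.35 to 1.05 for Atf4. Gdf15 and Fgf21 had at most 27 counts in any library, so their values carry the largest errors of the 10 genes.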

Other observations

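Sestrin 2 is known to reach mTORC1 through the GATOR2, GATOR1 and TSC complexes. Of 13 genes of this route, 5 rose, 5 fell and 3 did not pass the edgeR test, with a median log2 fold change of -0.03. These shares are close to the 33.6% of all loci tested that rose and the 34.1% that fell. Nprl3, a GATOR1 subunit, rose from 18.5 to 31.5 CPM (0.77 ± 0.08), Sec13, shared by GATOR2 and the nuclear pore, rose by 0.43 ± 0.04, and Tsc2, a brake on mTORC1, rose by 0.42 ± 0.05. Nprl2, the partner of NPRL3 in GATOR1, fell from 18.8 to 14.3 CPM, and Wdr59 and Seh1l of GATOR2 fell by 0.36 and 0.32 on the log2 scale. With chromosome medians removed, 3 were higher (Nprl3, Tsc2 and Wdr24) and 2 lower (Rheb and Rptor), against 31.1% and 31.7% of all loci. Nprl2 (-0.03), Wdr59 (-0.04), Seh1l (-0.12), Sec13 (0.09) and Mios (-0.03) were then not called.

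Among the loci whose centred log2 CPM profile over the 6 libraries was most like the mean profile of the 10 genes was Stard3 (Pearson r = 0.999), with a log2 fold change of 0.39 ± 0.06. Of 8478 loci compared, 372 had an r above 0.99. The 6 points share 2 genotypes and their libraries, so such a value mainly says that a locus was higher in all Yme1l-/- libraries with little spread.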
